A study of Rattus norvegicus with 24 samples.

Results

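The transcript response of rat INS-1E cells to 6 h of inflammatory cytokines was described from 6 of the 24 expression arrays of the study. INS-1E is a clonal, insulin-secreting line derived from a rat insulinoma, so it stands for a dividing tumour beta cell and not for an islet. The 3 arrays labelled 6hr_DMSO_Cyto came from cells given IL-1beta at 10 ng/ml, IFN-gamma at 50 ng/ml and TNF-alpha at 25 ng/ml together, and the 3 arrays labelled 6hr_DMSO_NoCyto from cells without them, and both groups carried the vehicle DMSO. The members were set by these labels alone, and no measured value chose them. The study's other 18 arrays cover 12 h and the compound BRD0476 at 10 uM, and they entered the fit to share its estimate of the spread, while only the 6 DMSO arrays at 12 h are compared below. The labels do not say whether the 3 arrays of a group came from separate cultures, so the p-values measure the spread between these arrays, which may be technical.

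The 3 cytokines signal through different receptors. IFN-gamma acts through JAK kinases bound to its receptor. IL-1beta uses the adaptor MyD88 with the IRAK kinases, and TNF-alpha uses TRADD, RIPK1 and TRAF2, and both routes meet at the kinase TAK1, which feeds the IKK complex and NF-κB as well as the JNK and p38 MAP kinases. In beta cells this mixture is a common laboratory model of the inflamed islet of type 1 diabetes, and it is known for stress of the endoplasmic reticulum (ER), nitric oxide formation and loss of specialised function. The cocktail was given whole, so the part of each cytokine cannot be told apart here. All changes below are differences of mean log2 intensity, cytokines minus none, with ± their standard error, n = 3 arrays per group.

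The 14217 named genes were measured by 1 probe set each, and array medians lay between 5.49 and 5.57 on the log2 scale. Pearson r across probe sets was between 0.9925 and 0.9967 within the cytokine group and between 0.9938 and 0.9973 within the untreated group, against 0.9541 to 0.9612 between the groups. Cytokine arrays of the same number deviated from their group means in a like way at 6 h and 12 h, with a correlation across genes of 0.641 for the third arrays, 0.367 for the first and 0.311 for the second. The third cytokine array was the lowest for several genes named below. For some of them, such as Nfkb2, Lcn2, Nr1d1 and Hdac11, the change is also given without that array. For others, such as Ppp1r15a, Dbp, Plvap and Icam1, it is not. The files carry no detection calls, and levels around 3.84, the lower quartile over the table, are treated as close to background, so that a change to or from them is a lower bound. For 42 of the 345 genes named, the mean over the probe sets of the gene gave a change that differed by over 1.5 times from that of the probe set used, Il1rap, Tcf7l2, Kars1, Klf5, Ptgs1, Bdnf, Idh1, Pfkfb4, Rab27a and Nfkbiz among them.

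The label of the cells was checked against marker genes. The insulin gene Ins1 read 14.48, 14.46 and 14.49 with cytokines, against 14.58, 14.46 and 14.55 without, a change of −0.05 ± 0.05 (limma adjusted p = 0.458). Over all genes 24.3% rose and 27.4% fell. Of 13 measured beta-cell markers, 2 rose and 9 fell, and none lay under the lower quartile in both groups. Markers of the other islet endocrine cells summed to 9.52 to 9.65 with cytokines against 10.31 to 10.57 without. Of 9, 1 fell, or 2 without the second or the third untreated array, and 0 rose (0 also at an unadjusted limma p under 0.05). The member that fell was the glucagon gene Gcg, by 0.96 ± 0.10. Of 19 leukocyte markers, 12 lay under the lower quartile in both groups, 2 rose (1 without the third untreated array) and 0 fell (1 without the second untreated array, and 0 at an unadjusted limma p under 0.05), with a summed level between 8.21 and 8.3 with cytokines against 8.02 to 8.22 without. The pan-leukocyte gene Ptprc averaged 3.84 with cytokines and 3.64 without, and the T-cell gene Cd3e 4.17 with cytokines and 4.20 without, all near background. Ptprc was called without the first untreated array (0.33, limma adjusted p = 0.00585) or with its probe sets averaged (0.21). Fibroblast markers summed to 9.26 to 9.83 with cytokines against 9.52 to 9.56 without, and endothelial markers to 9.2 to 9.69 with cytokines against 9.18 to 9.29 without. Exocrine and ductal markers stood higher with cytokines, summing to 11.88 to 11.95 with cytokines against 11.28 to 11.31 without, and their part in other results was not tested. The capillary gene Plvap and the ductal gene Muc1 were the markers of other cell kinds that rose furthest, by 2.67 ± 0.21 and 2.09 ± 0.14. In such bulk RNA, fewer cells of a kind and less RNA per cell cannot be told apart.

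The response was broad and mostly of modest size. Of the 14217 genes, 51.7% were called at a limma adjusted p under 0.05, 24.3% up and 27.4% down, and for 53.3% all 3 arrays of a group lay beyond all 3 of the other. At least 2-fold rises made up 6.24% of all genes and 2-fold falls 5.04%. The large changes ran one way: 139 genes rose at least 8-fold, whereas 76 fell at least 4-fold and 3 fell at least 8-fold. The median change was 0.59 among genes that rose, −0.56 among genes that fell and 0.004 over all genes. With so many genes called, the number of called members of a gene group says little without that background. Counts are therefore given for most groups by direction beside the median, to be read against the 24.3% up and 27.4% down of all genes. Genes named without such counts do not describe their group.

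**Figure D1:**
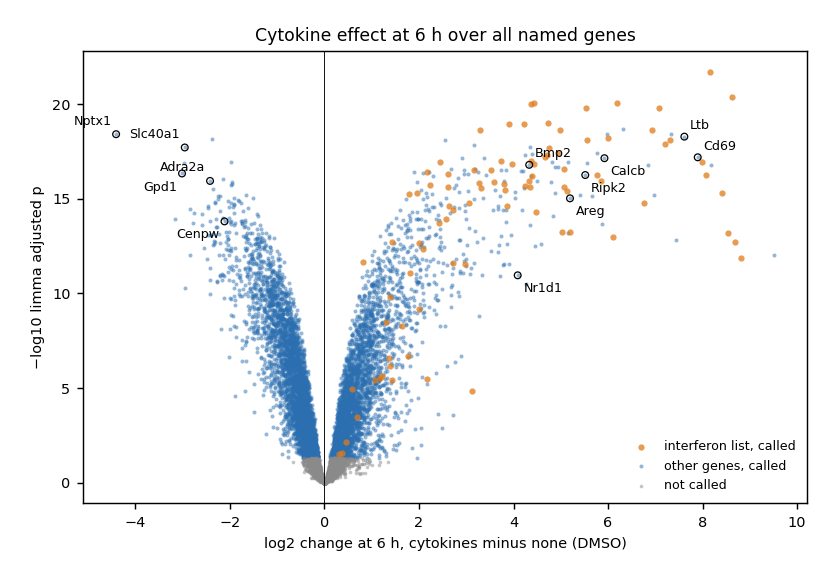
Log2 change with cytokines at 6 h (x axis, cytokines minus none in DMSO, 3 arrays per group) against −log10 of the limma adjusted p (y axis) for 14217 genes, with members of the interferon list in orange, other called genes in blue and genes not called in grey. The rises reach further than the falls, and many large rises, such as Ltb at 7.62, Ripk2 at 5.52 and Calcb at 5.92, lie outside the interferon list.

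Members of the interferon list filled 27 of the 50 largest rises and are not described further, except where their promoters serve as a yardstick. The list is not complete, and Ifgga2l1, Rtp4, Uba7, Ube2l6 and Wars1, named below, are also known to be induced by interferons. A gene named outside the list may therefore still respond to interferon. Outside that list the largest rise of a gene with a role in lymphoid signalling was that of Cd69, a C-type lectin of activated lymphocytes, by 7.90 ± 0.20. Ltb, which encodes lymphotoxin beta, read 12.09, 12.04 and 12.22 with cytokines, against 4.33, 4.51 and 4.67 without. Each of its cytokine arrays lay more than 7 log2 units above each untreated array, and the change was 7.62 ± 0.16 (limma adjusted p = 5.23e-19). Ubd, the ubiquitin-like modifier FAT10, rose by 7.44 ± 0.35. Ripk2, the kinase that relays signals from the sensors NOD1 and NOD2, read 11.61, 11.71 and 11.79 with cytokines, against 5.94, 6.56 and 6.06 without, a rise of 5.52 ± 0.16. Stap2, a signal-transducing adaptor, rose by 5.55 ± 0.15, and the chaperone gene of chemosensory receptors Rtp4 by 7.33 ± 0.15.

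Calcb, the gene of the beta form of calcitonin gene-related peptide, was near background without cytokines. Its arrays read 9.75, 9.59 and 9.52 with cytokines, against 3.39, 3.75 and 3.95 without, and the rise of 5.92 ± 0.15 is a lower bound. The costimulatory receptor gene Cd40 rose by 5.40 ± 0.18. The remaining names among the 15 largest rises outside the interferon list were Ifgga2l1 (8.17), Cxcl1 (6.96), Icam1 (6.84), C1s (6.31), Tmem140 (5.97), C1r (5.77) and Cxcl2 (5.67).

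The 15 deepest falls included genes of carriers, receptors and matrix proteins. Slc40a1 encodes ferroportin, the only known iron exporter of mammalian cells. It read 5.92, 6.00 and 5.95 with cytokines, against 8.93, 8.88 and 8.93 without, a fall of 2.96 ± 0.07 that all 3 of its probe sets showed. Tmem100, a membrane protein gene, fell by 2.97 ± 0.08, Dixdc1, which codes for a Wnt-pathway protein, by 2.94 ± 0.20, and Lrp8, the reelin and apolipoprotein E receptor, by 2.79 ± 0.12. Rem2, a small GTPase that restrains voltage-gated calcium channels, fell by 2.77 ± 0.11, and Mfsd2a, the transporter of lysophospholipids that carry docosahexaenoic acid, by 2.60 ± 0.11. The collagen genes Col9a1 (−2.60 ± 0.10) and Col6a6 (−2.55 ± 0.13), the endosomal adaptor gene Appl2 (−2.47 ± 0.09), and Poteml2 (−2.84) and Smim23 (−2.50) completed the list with Nptx1 (−4.41), Slc15a2 (−3.16), Gpd1 (−3.02) and Mertk (−2.85).

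The receptors for the 3 cytokines moved in different directions. The signalling IL-1 receptor Il1r1 read 10.12, 10.12 and 9.97 with cytokines, against 10.84, 10.83 and 10.74 without, a fall of 0.73 ± 0.06 (−0.28 with its probe sets averaged). Its partner chain Il1rap rose by 1.56 ± 0.11, and the decoy receptor Il1r2, which binds IL-1 without passing on a signal, by 1.02 ± 0.08. So within 1 receptor system the signalling chain was lower, and the shared chain and the decoy were higher. Ifngr1 and Ifngr2, the chains of the IFN-gamma receptor, rose by 0.30 ± 0.07 and 0.28 ± 0.06, whereas Tnfrsf1a and Tnfrsf1b, the TNF receptors, changed by 0.20 ± 0.14 and 0.22 ± 0.12 and were not called. The IL-6 receptor Il6r fell by 1.16 ± 0.08, and the IL-4 receptor Il4r rose by 1.51 ± 0.14. Of 20 receptor genes, 7 rose and 3 fell, with a median of 0.14.

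Below the receptors, adaptors and kinases moved both ways. Myd88 itself fell by 0.66 ± 0.11 and the kinase Irak1 by 0.54 ± 0.07, and Map3k7, which encodes TAK1, by 0.47 ± 0.07. Irak2, which sustains the signal, rose by 2.14 ± 0.13, and Irak3, a kinase-dead member that dampens it, by 1.40 ± 0.13. The ubiquitin-binding inhibitors Tnip1 and Tnip2 rose by 2.05 ± 0.10 and 1.34 ± 0.12. All 3 subunits of LUBAC, the ligase that builds linear ubiquitin chains on the TNF receptor complex, rose: Rnf31 by 1.38 ± 0.12, Rbck1 by 0.92 ± 0.17 and Sharpin by 0.40 ± 0.12. The kinase gene Map3k8, known as Tpl2, rose by 3.06 ± 0.13 and Traf2 by 1.53 ± 0.09. The TNF receptor adaptor Tradd was not called (0.03 ± 0.10). In all 16 of 30 adaptors rose and 5 fell (median 0.30).

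The NF-κB genes themselves rose together, with Nfkb2 and Relb of the alternative arm among the largest rises. Nfkb2 encodes the p100 precursor of that arm. It read 10.43, 10.43 and 9.83 with cytokines, against 5.88, 5.99 and 5.48 without, with no overlap between the groups, and rose by 4.45 ± 0.22 (4.65, adjusted p = 9.46e-13 without the third cytokine array). Its partner Relb rose by 3.85 ± 0.16 and Map3k14, the kinase NIK that starts the arm, by 0.71 ± 0.20. In the classical arm Nfkb1 rose by 1.83 ± 0.10 and Rela by 0.55 ± 0.10. Among the inhibitors, Nfkbia rose by 2.95 ± 0.08, Nfkbib by 1.92 ± 0.18, Nfkbiz by 2.20 ± 0.13 and the deubiquitinases Tnfaip3 (A20) and Cyld by 2.99 ± 0.12 and 1.2 ± 0.10. Zc3h12a, the regnase that degrades cytokine messages, rose by 1.80 ± 0.23. Of 16 members, 13 rose and 1 fell (2 without the second untreated array), with a median of 1.5, against 24.3% and 27.4% of all genes and a median of 0.004.

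The MAP kinase and AP-1 genes moved both ways, 13 up and 5 down of 24 (median 0.37). The Jun genes Jun, Junb and Jund rose by 1.81 ± 0.15, 2.02 ± 0.15 and 0.49 ± 0.07, and Fosl2 by 1.44 ± 0.17. Fos, by contrast, read 3.95, 3.37 and 3.43 with cytokines, against 5.40, 5.86 and 5.13 without. So 6 h of cytokines left Fos near background, a fall of 1.88 ± 0.18 (−0.94 with its probe sets averaged). The small Maf genes rose, Maff by 4.03 ± 0.14 and Mafk by 1.09 ± 0.07. Of the p38 kinases, Mapk14 (p38 alpha) fell by 0.61 ± 0.08 and its activator Map2k3 by 0.93 ± 0.06, while Mapk11 rose by 0.90 ± 0.11. Some dual-specificity phosphatases were lower, with Dusp5 at −1.52 ± 0.14, Dusp6 at −1.08 ± 0.10 and Dusp14 at −1.18 ± 0.08. Spry4, an inhibitor of the ERK pathway, fell as well (−0.56 ± 0.11). Dusp7, Dusp12 and Dusp18 rose by 1.03 ± 0.09, 1.35 ± 0.11 and 1.01 ± 0.15. The dual-specificity phosphatases counted 4 up and 7 down of 16 (median −0.08). Among immediate early genes Klf5 stood out at 9.0, 9.07 and 8.76 with cytokines, against 5.02, 5.85 and 4.61 without, a rise of 3.78 ± 0.21, and the helix-loop-helix inhibitors Id1, Id2 and Id3 rose by 0.61 ± 0.10, 1.21 ± 0.11 and 1.68 ± 0.12. Myc rose by 1.36 ± 0.07, and its relatives Mycl and Mycn fell by 0.66 ± 0.07 and 0.84 ± 0.11. Of 25 immediate early genes 11 rose and 6 fell (median 0.20).

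**Figure D2:**
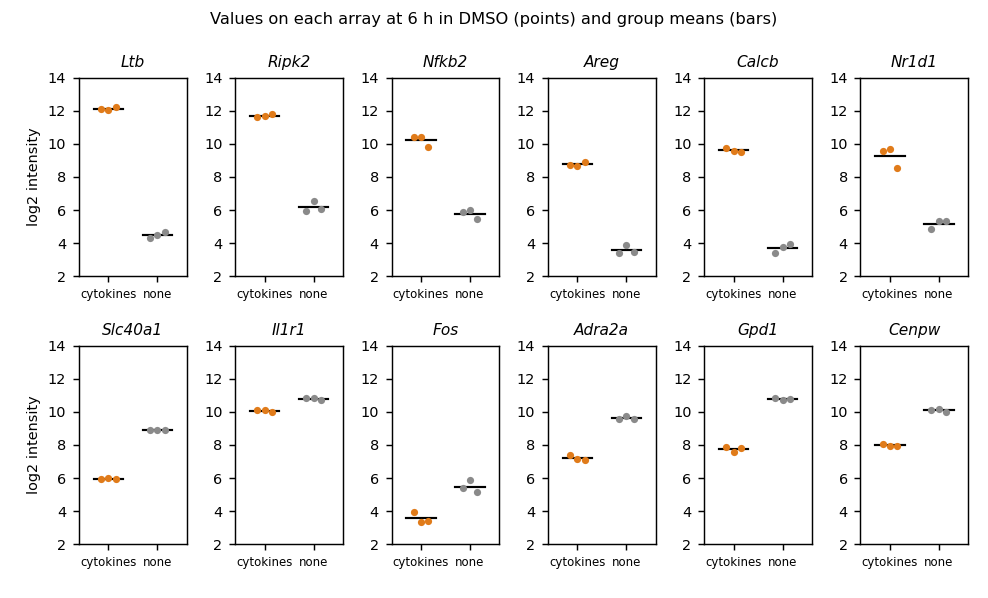
Log2 intensity on each of the 6 arrays (y axis) for 12 genes, with cytokines (orange, left) and without (grey, right), points for arrays and bars for group means. Ltb, Ripk2, Nfkb2, Areg, Calcb and Nr1d1 lie high with cytokines, and Slc40a1, Il1r1, Fos, Adra2a, Gpd1 and Cenpw lie low, with no overlap between the groups for any of the 12.

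Signals that the cells could send out formed a short list. Beyond the interferon-linked chemokines, the neutrophil attractants Cxcl1 and Cxcl2 rose by 6.96 ± 0.23 and 5.67 ± 0.19. Ccl20, the ligand of CCR6, read 8.76, 8.71 and 9.03 with cytokines, against 4.30, 4.25 and 4.20 without, a rise of 4.59 ± 0.22 from near background. Ccl5 rose by 2.87 ± 0.17, Ccl19 by 2.45 ± 0.22 and the membrane-bound chemokine genes Cxcl16 and Cx3cl1 by 2.09 ± 0.07 and 2.06 ± 0.21. Of the 25 measured chemokines other than the CXCR3 ligands, 11 rose, 1 fell and 13 were not called (median 0.22), and 9 of the 25 lay under the lower quartile in both groups. Of the cytokine genes, Il15 rose by 2.42 ± 0.12, Il7 by 2.31 ± 0.18, Tnf by 1.70 ± 0.17 and Csf1, the macrophage growth factor, by 1.13 ± 0.19. The IL-12 family subunits rose in part, Il12a by 1.28 ± 0.13, Il23a by 1.80 ± 0.13 and Ebi3 by 2.14 ± 0.10, whereas the shared subunit Il12b was not called at −0.13 ± 0.10. Il1b (0.20 ± 0.10), Il1a (−0.06 ± 0.11) and Il6 (−0.04 ± 0.11) were not called either, and the alarmin gene Il33 fell by 0.86 ± 0.12.

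Single complement and acute-phase genes rose by a large amount. C1s and C1r, the 2 proteases of the classical complement pathway, rose by 6.31 ± 0.12 and 5.77 ± 0.14. C3, on which all complement pathways converge, read 8.40, 8.36 and 7.99 with cytokines, against 4.05, 3.93 and 4.17 without, a rise of 4.20 ± 0.12 from near background. Cd55, which protects a cell from its own complement by breaking up C3 convertases, fell by 1.64 ± 0.08, and C1qa, a chain of the recognition protein C1q, by 1.25 ± 0.12. The other chains of C1q, C1qb (0.07 ± 0.15) and C1qc (−0.31 ± 0.14), were not called, though C1qc was without the second untreated array (−0.41, adjusted p = 0.0291). Lcn2, the siderophore-binding lipocalin, read 8.65, 8.52 and 7.37 with cytokines, against 3.96, 3.73 and 4.08 without, so that the third cytokine array lay about 1 log2 unit below the other 2. Its rise was 4.25 ± 0.28, and 4.66, adjusted p = 2.12e-12 without that array. Cp, the ferroxidase ceruloplasmin, rose by 2.10 ± 0.10. Counting all 27, 11 rose and 4 fell (median 0.15), or 2 without the second cytokine array. Among innate sensors Sting1, the adaptor for cytosolic DNA, rose by 4.80 ± 0.15, Unc93b1, which carries endosomal Toll-like receptors, by 2.37 ± 0.09, Nod1 by 1.35 ± 0.10 and Tlr2 by 1.17 ± 0.15, while the Toll-like receptor adaptors Ticam1 and Tirap fell by 0.50 ± 0.13 and 0.63 ± 0.13.

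Arginine, tetrahydrobiopterin and polyamine genes moved at single steps rather than as pathways. Ass1, which makes argininosuccinate from citrulline, rose by 3.70 ± 0.23, and Asl, the next enzyme, fell by 0.58 ± 0.09. Gch1, the entry enzyme of tetrahydrobiopterin synthesis, rose by 0.90 ± 0.08, and its feedback regulator Gchfr fell by 1.17 ± 0.09. The recycling enzyme Qdpr fell by 0.81 ± 0.06, and Ddah2, which breaks down inhibitors of nitric oxide synthase, by 1.69 ± 0.08. In polyamine metabolism the acetyltransferase Sat1, which starts polyamine breakdown, read 8.93, 9.07 and 8.78 with cytokines, against 5.97, 6.48 and 6.34 without, a rise of 2.66 ± 0.10. Amd1, which supplies the aminopropyl donor for their synthesis, fell by 1.27 ± 0.06. The synthase Srm rose by 0.62 ± 0.12 and Sms fell by 0.41 ± 0.08. The list of 24 counted 9 up and 9 down (median 0.02). Ido1, which degrades tryptophan, rose by 1.82 ± 0.19, and Nampt, the rate-limiting enzyme of NAD salvage, by 1.71 ± 0.07.

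Antioxidant and metal genes also divided. Hmox1, the haem oxygenase, rose by 1.80 ± 0.08 and the glutathione transferase gene Gsta4 by 1.67 ± 0.12. Other known targets of the factor NRF2 fell, among them Nqo1 by 1.03 ± 0.12, Srxn1 by 1.05 ± 0.09, Gsr, which regenerates glutathione, by 1.04 ± 0.15 and Gstm1 by 1.46 ± 0.13. The NADPH-forming enzyme genes Idh1 and Me1 fell by 1.5 ± 0.08 and 0.68 ± 0.08, and Gpx4, which reduces lipid peroxides, by 0.65 ± 0.06. Keap1, the inhibitor of NRF2, rose by 0.73 ± 0.06 and Nfe2l2, which encodes NRF2, by 0.37 ± 0.08. Of 43 redox genes 10 rose and 19 fell (median −0.07), against 24.3% up and 27.4% down of all genes.

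Among the metallothioneins Mt2A and Mt1 rose by 3.57 ± 0.13 and 1.31 ± 0.18, and Mt3, the neural form, fell by 1.92 ± 0.07. On the iron side, ferroportin fell as described, the transferrin receptor Tfrc fell by 0.70 ± 0.06, the importer Slc11a2 (DMT1) rose by 0.77 ± 0.09, and the mitochondrial iron carriers Slc25a28 and Slc25a37 rose by 1.52 ± 0.08 and 0.92 ± 0.13. The zinc importer Slc39a10 fell by 1.66 ± 0.08. Of 31 metal genes 7 rose and 11 fell (median −0.04), against 24.3% up and 27.4% down of all genes.

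Most genes of the integrated stress response, in which phosphorylation of the factor eIF2 favours translation of ATF4, were higher. Atf4 itself rose by 1.0 ± 0.07, and several genes known as its targets rose further. Gdf15, a stress hormone gene, read 8.60, 8.79 and 8.83 with cytokines, against 5.56, 5.69 and 5.0 without, a rise of 3.33 ± 0.20. Chac1, which degrades glutathione, rose by 2.19 ± 0.10, and Ppp1r15a, which dephosphorylates eIF2, by 2.39 ± 0.18, the third cytokine array being the lowest of the 3 at 8.91 against 9.77 and 9.69. The bZIP partners Cebpb, Cebpg and Cebpd rose by 1.37 ± 0.06, 1.17 ± 0.05 and 1.08 ± 0.08. Within amino-acid synthesis the mitochondrial folate enzymes Mthfd2 and Shmt2 rose by 1.49 ± 0.08 and 1.22 ± 0.12. The serine-synthesis enzyme Psph fell by 0.27 ± 0.09, and Phgdh (−0.08 ± 0.13) and the asparagine synthetase Asns (−0.06 ± 0.07), both textbook ATF4 targets, were not called. In the list of 34, 22 rose and 4 fell, with a median of 0.72.

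The aminoacyl-tRNA synthetases, which load amino acids onto their tRNAs, mostly rose. Kars1, the lysyl enzyme, read 11.65, 11.58 and 11.62 with cytokines, against 9.66, 9.44 and 9.65 without, a rise of 2.03 ± 0.07. The tryptophanyl enzyme Wars1, also a known interferon target, rose by 1.52 ± 0.08, the valyl enzyme Vars1 by 1.22 ± 0.12 and the seryl enzyme Sars1 by 1.11 ± 0.07. Of 21 members 15 rose, with a median of 0.73. The 2 that fell were Farsa, a chain of the phenylalanyl enzyme, (−0.31 ± 0.08) and the glycyl enzyme Gars1 (−0.39 ± 0.06). Amino-acid carriers did not follow as a group (12 up and 11 down of 33, median −0.01). Slc3a2 and Slc7a5, the 2 chains of the large neutral amino-acid transporter, rose by 1.56 ± 0.07 and 1.02 ± 0.10, the glycine carrier Slc6a9 by 2.06 ± 0.28 and the cystine carrier Slc7a11 by 0.94 ± 0.15, while the glutamine carrier Slc38a3 fell by 1.13 ± 0.12 and Slc3a1 by 1.34 ± 0.19.

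In the ER itself the change was uneven. Dnajb9, a target of the IRE1 branch, rose by 1.46 ± 0.14, the lectin chaperone Calr by 1.03 ± 0.25, the retrotranslocation genes Selenos and Herpud1 by 1.06 ± 0.05 and 0.93 ± 0.10, and Wfs1, the gene mutated in Wolfram syndrome, by 0.92 ± 0.12. The chaperone Hsp90b1 fell by 0.24 ± 0.06, a call that was lost with only the 6 arrays compared in the fit (limma adjusted p = 0.0535). The isomerase Pdia6 fell by 0.31 ± 0.05, the reductase Dnajc10 by 0.83 ± 0.06 and the translocon gene Sec63 by 0.68 ± 0.06. That made 17 up and 9 down of 43 (median 0.04, and −0.05 without the third cytokine array). Cytosolic and mitochondrial heat-shock genes counted 9 up and 9 down of 32 (median 0.05), shares near the 24.3% and 27.4% of all genes. Hspa1a, the inducible HSP70, was not called at 0.32 ± 0.15, but was called without the third cytokine array (0.50, adjusted p = 0.00795) or the second untreated array (0.43, adjusted p = 0.0351). Its partner Dnajb1 fell by 0.61 ± 0.05.

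Death genes rose on both sides of the balance. The BH3-only and pore genes Bbc3 (PUMA), Hrk, Bid and Bak1 rose by 1.79 ± 0.10, 1.55 ± 0.13, 1.45 ± 0.10 and 1.98 ± 0.34. The survival genes Bcl2l1 (BCL-XL) and Bcl2a1 rose by 0.95 ± 0.20 and 0.77 ± 0.11, and Mcl1 was not called at 0.15 ± 0.10 but was called at 0.21 with its probe sets averaged. Bcl2l11, which encodes BIM, fell by 1.19 ± 0.06 (−0.37 with its probe sets averaged), as did the mitophagy receptors Bnip3 and Bnip3l, by 0.97 ± 0.09 and 0.92 ± 0.07. Tnfrsf11b, the secreted decoy receptor osteoprotegerin, rose by 4.36 ± 0.10, the caspase-8 inhibitor Cflar by 1.16 ± 0.12 and the caspase-8 adaptor Fadd by 1.04 ± 0.12. Casp12 rose by 2.51 ± 0.14 and the pore-former of pyroptosis Gsdmd by 1.72 ± 0.13, while the executioner caspase gene Casp6 fell by 0.91 ± 0.10. Gadd45b, a stress gene of the NF-κB response, rose by 3.83 ± 0.11. The BCL-2 and p53-linked list counted 19 up and 8 down of 33 (median 0.50), and the death receptors and caspases 12 up and 6 down of 27 (median 0.12).

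The circadian clock is a loop in which CLOCK and BMAL1 drive the Per and Cry repressors and the REV-ERB receptors, which in turn repress Bmal1. Its genes rose on both arms at 6 h. Nr1d1, which encodes REV-ERB alpha, read 9.60, 9.66 and 8.51 with cytokines, against 4.86, 5.34 and 5.31 without. The third cytokine array lay about 1 log2 unit below the other 2 but still more than 3 units above every untreated array, and the rise was 4.09 ± 0.25 (limma adjusted p = 1.1e-11), or 4.46, adjusted p = 5.75e-13 without that array. Its sister Nr1d2 rose by 1.13 ± 0.08. Bmal1, the gene they repress, rose as well, reading 7.71, 7.66 and 7.68 with cytokines, against 6.09, 6.29 and 6.11 without, by 1.52 ± 0.19, and Clock rose by 0.48 ± 0.07. The clock output factor Dbp rose by 1.83 ± 0.10, and Nfil3, which opposes it on the same DNA sites, by 1.76 ± 0.09. The repressors Bhlhe41 and Bhlhe40 rose by 1.93 ± 0.08 and 0.60 ± 0.10 and Per1 by 0.91 ± 0.09, whereas Cry1 was not called (−0.05 ± 0.09). Cry2 changed by −0.24 ± 0.08, which was no longer called without the third cytokine array (−0.15, adjusted p = 0.11) or the first untreated array (−0.22, adjusted p = 0.0532). In all 12 of 21 clock genes rose and 2 fell, with a median of 0.48. Without the first untreated array 1 clock gene fell. The labels give no time of day or medium change for the arrays.

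Degradation routes changed in parts. Of 46 autophagy and lysosome genes 16 rose and 8 fell (median 0.05). Of 48 genes of the constitutive proteasome and ubiquitin enzymes 16 rose and 19 fell (median −0.08). Mitf, of the family that drives lysosome genes, rose by 2.35 ± 0.19, its relatives Tfe3 and Tfeb by 0.89 ± 0.10 and 0.58 ± 0.13, and the autophagy receptors Optn and Sqstm1 by 1.97 ± 0.08 and 0.92 ± 0.07. The kinases Ulk1 and Ulk2, which start autophagy, fell by 0.86 ± 0.18 and 0.98 ± 0.06 and Becn1 by 0.39 ± 0.08. Beside Ubd, the ISG15 activating and conjugating enzyme genes Uba7 and Ube2l6 rose by 2.37 ± 0.15 and 2.55 ± 0.06. Of the standard catalytic proteasome subunits that the immunoproteasome exchanges, Psmb5 fell by 0.29 ± 0.06 and Psmb7 rose by 1.24 ± 0.33.

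Beta-cell factors fell at some positions and rose at others. Beside the fall of Nkx6-1 (−1.52 ± 0.11), Isl1 fell by 1.17 ± 0.14, Nkx2-2 by 0.71 ± 0.17 and Sox4 by 0.92 ± 0.06. Tcf7l2, the Wnt effector known as a type 2 diabetes gene, read 8.38, 8.31 and 8.20 with cytokines, against 6.32, 6.73 and 6.12 without. Its rise was 1.90 ± 0.15 (0.91 with its probe sets averaged), and the zinc-finger factor St18 rose by 1.41 ± 0.21. Neurod1 (0.10 ± 0.11) and Foxa2 (−0.05 ± 0.11) were not called. Of 30 factors 7 rose and 8 fell (median 0.03), shares near the 24.3% and 27.4% of all genes.

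Genes of the secretory granule leaned down, 20 of 38 against 4 up, with a median of −0.23. Among hormone genes the insulin gene Ins1 was not called, as given above, and some others fell. Gastrin, Gast, read 5.39, 5.59 and 5.92 with cytokines, against 7.55, 7.53 and 7.41 without, a fall of 1.86 ± 0.11. Glucagon, Gcg, fell by 0.96 ± 0.10, and islet amyloid polypeptide, Iapp, by 0.43 ± 0.05. Rab27a, a GTPase that tethers granules, and its effector granuphilin, Sytl4, fell by 1.55 ± 0.09 and 1.46 ± 0.12. The incretin receptor gene Gipr fell by 1.13 ± 0.11 and the peptide-amidating enzyme Pam by 0.70 ± 0.06 (−0.2 with its probe sets averaged). Without the second cytokine array 2 granule genes rose. Among fusion and channel genes, the calcium sensor Syt9 and the Rab3 effector Rph3al rose by 1.58 ± 0.10 and 1.32 ± 0.30. The sulphonylurea receptor Abcc8 rose by 0.57 ± 0.15 and its channel partner Kcnj11 changed by −0.23 ± 0.08, a call that was lost without the third cytokine array (−0.18, adjusted p = 0.0776) or the first untreated array (−0.19, adjusted p = 0.0649) and turned to 0.02 when its probe sets were averaged. The potassium channel Kcnq1 fell by 0.95 ± 0.15 and complexin 2, Cplx2, by 1.07 ± 0.17.

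Some receptors that restrain insulin release through inhibitory G proteins fell. Of the 55 genes of G-protein-coupled receptors and cAMP signalling, 14 rose and 18 fell (median −0.004), against 24.3% and 27.4% of all genes. Adra2a, the alpha-2A adrenergic receptor, read 7.37, 7.16 and 7.09 with cytokines, against 9.58, 9.77 and 9.54 without, a fall of 2.42 ± 0.07 (−1.40 averaged). The somatostatin receptors Sstr1 and Sstr2 fell by 2.36 ± 0.11 and 2.18 ± 0.20 (−0.73 and −1.31 with their probe sets averaged), and the galanin receptor Galr1 by 2.0 ± 0.18. Not every such receptor fell, since Sstr3 and the dopamine receptor Drd2 rose by 1.19 ± 0.09 and 0.89 ± 0.15, and Sstr5 was not called (−0.13 ± 0.10). Of receptors that promote release, P2ry1 fell by 2.01 ± 0.15, and the muscarinic receptor Chrm3 rose by 0.87 ± 0.11. The cAMP-linked repressor gene Crem fell by 1.91 ± 0.08, and the phosphodiesterase genes Pde4b and Pde4d by 0.86 ± 0.13 and 0.59 ± 0.11. Some genes that beta cells share with neurons fell: the AMPA receptor subunit Gria2 by 2.46 ± 0.11, the neurofilament gene Nefl by 1.99 ± 0.15 and Maob, the monoamine oxidase, from which arrays read 9.61, 9.62 and 9.65 with cytokines, against 12.06, 11.98 and 11.95 without, by 2.37 ± 0.05. Its sister Maoa fell by 0.96 ± 0.11. Of 55 neuronal genes 21 fell, 9 rose and 25 were not called (median −0.07).

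**Figure D3:**
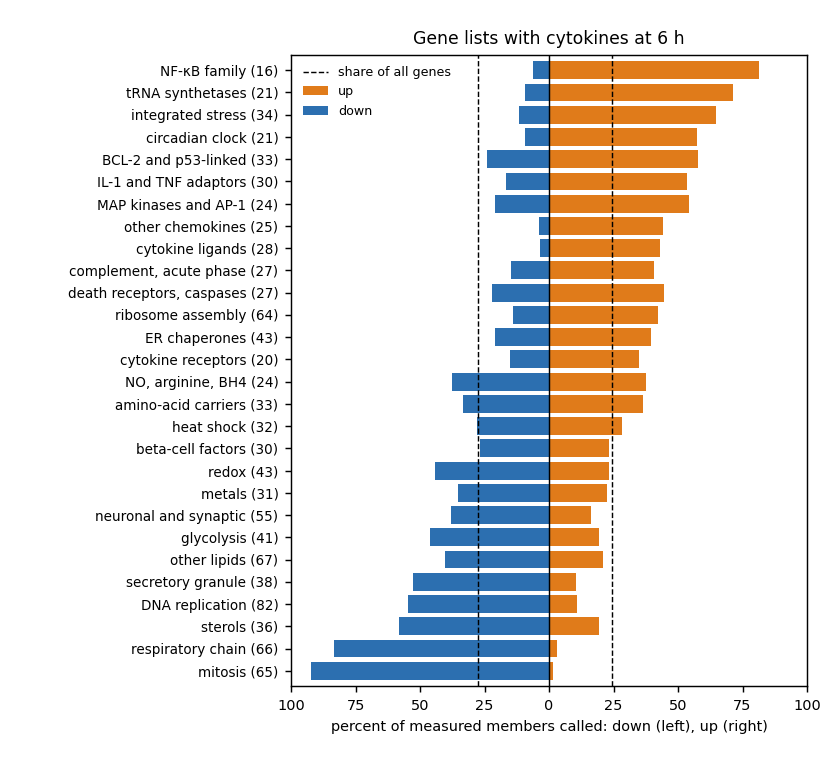
Percent of measured members called up (orange, to the right) and down (blue, to the left) with cytokines at 6 h for 28 gene lists, with the number measured beside each name, and dashed lines at the shares over all genes, 24.3% up and 27.4% down. The NF-κB, tRNA synthetase and integrated stress lists lie far to the right, and the mitosis and respiratory chain lists far to the left.

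In central metabolism the glycerol phosphate shuttle was lower at both ends. Gpd1, its cytosolic enzyme, read 7.90, 7.56 and 7.80 with cytokines, against 10.85, 10.71 and 10.76 without, a fall of 3.02 ± 0.09, and Gpd2, its mitochondrial partner, fell by 1.11 ± 0.10. The glycolytic enzymes Tpi1 and Eno1 fell by 1.23 ± 0.07 and 0.54 ± 0.09, the bifunctional regulator Pfkfb4 by 1.91 ± 0.17 and the pyruvate dehydrogenase subunit Pdhb by 1.43 ± 0.06. Pfkp, the platelet form of phosphofructokinase, rose by 2.13 ± 0.09 and the glycogen phosphorylase Pygl by 1.67 ± 0.08. Glycolytic genes counted 8 up and 19 down of 41 (median −0.25), and genes of the citric acid cycle and its shuttles 4 up and 21 down of 43 (median −0.20). In the respiratory chain 55 of 66 nuclear-encoded genes fell and 2 rose, with a median of −0.36. Ndufa2, a subunit of complex I, fell by 0.93 ± 0.08. When any array but the third cytokine array was left out, 1 gene of the list rose.

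Lipid genes fell at the desaturation and elongation steps. Fads1 and Fads2, the desaturases of polyunsaturated fatty acids, fell by 1.67 ± 0.06 and 1.13 ± 0.09, the elongase Elovl2 by 1.07 ± 0.10, and Acaca, which makes malonyl-CoA, by 1.35 ± 0.09. In prostaglandin metabolism the cyclooxygenase genes Ptgs1 and Ptgs2 rose by 1.5 ± 0.11 and 0.98 ± 0.10. Hpgd, which inactivates prostaglandins, fell by 2.15 ± 0.09. The liver X receptor beta, Nr1h2, rose by 1.27 ± 0.17 and Mylip, a ligase that removes the LDL receptor, by 0.74 ± 0.10, while the reductase Tm7sf2 fell by 1.25 ± 0.08 and the sensor Insig1 by 0.92 ± 0.06. The factors Srebf1 (−0.10 ± 0.09) and Srebf2 (−0.17 ± 0.20), which drive these genes, were not called. The wider sterol list counted 21 down and 7 up of 36 (median −0.44), and the other lipid genes 27 down and 14 up of 67 (median −0.08).

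Mitotic genes fell together in a larger share than the other lists described here, 60 of 65 with 1 up and 27 falling at least 2-fold. Their median was −0.91. Cenpw, a kinetochore gene, read 8.07, 7.92 and 7.95 with cytokines, against 10.08, 10.20 and 10.00 without, a fall of 2.12 ± 0.09. The spindle kinases Aurka and Plk1 fell by 1.45 ± 0.09 and 1.37 ± 0.06, the cyclins Ccnb1 and Ccnb2 by 1.42 ± 0.07 and 1.21 ± 0.08, and the securin gene Pttg1 by 1.49 ± 0.06. Cenpm was the member that rose, by 0.43 ± 0.09 (0.27, adjusted p = 0.00258 without the second untreated array), and the factor Foxm1, which drives many of these genes, was not called (0.10 ± 0.11) but was called at −0.50 with its probe sets averaged. Replication genes moved less. Of 82, 45 fell and 9 rose, with a median of −0.26. Pole2, a subunit of DNA polymerase epsilon, fell by 1.58 ± 0.09 and the checkpoint kinase Chek2 by 1.87 ± 0.12, while the other checkpoint kinase, Chek1, rose by 1.16 ± 0.18 and cyclin D1, Ccnd1, by 0.88 ± 0.11.

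The ribosomal proteins served as a quiet group. Of 40, 6 rose by at most 0.23 log2 units (Rpl4) and 0 fell at a limma adjusted p under 0.05, and 1 had an unadjusted p under 0.05 with a negative change. Without the second untreated array 3 rose, and without the first cytokine array 1 fell. Ribosome assembly factors counted 27 up and 9 down of 64 (median 0.18), led by Rrp9 at 1.14 ± 0.22. Splicing factors and kinases counted 19 up and 22 down of 57 (median −0.08). Among them the kinases Clk1 and Clk4, which phosphorylate SR proteins, rose by 1.28 ± 0.08 and 1.22 ± 0.10. The SR protein genes Srsf5 and Srsf2 fell by 1.73 ± 0.08 and 1.11 ± 0.07. In chromatin the deacetylase Hdac11 read 9.70, 9.65 and 8.98 with cytokines, against 6.54, 6.72 and 6.62 without, a rise of 2.82 ± 0.19 (3.05, adjusted p = 3.29e-11 without the third cytokine array). Hdac2 and Hdac3 fell by 0.75 ± 0.08 and 0.53 ± 0.08, and the demethylase Kdm2b by 1.48 ± 0.07. The chromatin list counted 18 up and 19 down of 69 (median 0.03), shares near those of all genes. The retinoic acid receptors Rarb and Rara rose by 2.94 ± 0.16 and 1.16 ± 0.16. Nuclear receptors and corepressors counted 14 up and 6 down of 41 (median 0.09).

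Single growth factor and morphogen genes rose by a large amount. Of 76 genes of insulin, growth factor and mTOR signalling, 23 rose and 19 fell (median 0.02). The Wnt, Notch, TGF-beta and Hippo genes counted 20 up and 19 down of 82 (median −0.02). Shares in both lists lay near the 24.3% up and 27.4% down of all genes. Areg, which encodes amphiregulin, a ligand of the EGF receptor, read 8.74, 8.68 and 8.89 with cytokines, against 3.39, 3.88 and 3.46 without, a rise of 5.2 ± 0.18 from near background. Other ligands of that receptor, Hbegf and Tgfa, fell by 1.53 ± 0.13 and 0.70 ± 0.09. Bmp2 read 9.93, 10.13 and 9.64 with cytokines, against 5.53, 5.57 and 5.61 without, a rise of 4.33 ± 0.12. The Notch ligands Dll1 and Jag1 rose by 2.85 ± 0.20 and 1.94 ± 0.12 and the receptor Notch1 by 1.13 ± 0.11, while the target gene Hey1 was not called (−0.05 ± 0.13). Wnt4, a Wnt ligand of beta cells, fell by 1.98 ± 0.06 and the receptor Fzd6 by 1.80 ± 0.11. Pdgfa and Bdnf rose by 2.06 ± 0.14 and 2.02 ± 0.13. The receptor substrate Irs2 fell by 0.94 ± 0.09, and the insulin receptor Insr was not called (0.01 ± 0.11). Of adhesion genes, the heparan sulphate proteoglycan Sdc4 rose by 2.12 ± 0.08, Madcam1 by 1.76 ± 0.20 and Vcam1 by 0.82 ± 0.13, and the protease inhibitor Serpine2 fell by 1.71 ± 0.15. Of 31 tripartite-motif genes 13 rose and 6 fell (median 0.21). Trim34 rose by 3.61 ± 0.12 and Trim26 by 2.09 ± 0.09.

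Short sequence motifs known for these pathways were counted in the promoters. RefSeq windows of 300 bases, from 250 before to 50 after the first listed start on the rat build GRCr8, were matched for 11700 of the 14217 genes. Each motif was searched on both strands, with N for any base. The response element of interferon-driven factors, GAAANNGAAA, was present in 10.9% of the 714 promoters of genes that rose at least 2-fold, 1.84% of the 599 that fell at least 2-fold and 2.99% of all. It was found in 52.0% of the 75 promoters of the interferon list. The NF-κB site GGGANNTTCC was found in 38.5% of the 13 promoters of NF-κB genes, 3.78% of genes up at least 2-fold and 1.44% of all. The CHR element of cell-cycle genes, TTTGAA, stood in 66.1% of the 56 mitosis promoters and 12.3% of all, and CCAAT in 75% and 37.3%. The E2F site TTTNGCGC was in 24.2% of the 66 replication promoters and 2.01% of all. The C/EBP-ATF element TGATGNAAT was in 2 of 30 stress promoters (6.67%), 2 of 19 synthetase promoters (10.5%) and 0.547% of all. The sterol element TCACNCCAC was in none of the 30 promoters of the sterol list at this spelling. The interferon-gamma activated site TTCNNNGAA was in 26.7% of the 75 promoters of the interferon list, 8.40% of genes up at least 2-fold and 6.99% of all. It overlapped a CHR match in 33 windows. A CHR match overlapped a CCAAT match in 8 windows and the response element of interferon-driven factors in 5.

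The members of each group with the largest change and a match show where the letters lie. For the NF-κB site the group joined the lists of NF-κB genes, other chemokines and cytokine ligands. Each printed window has only its named motif in capitals. Matches to other motifs, such as the NF-κB site in Cxcl10 and the CHR element in Pole2, stay in lower case. The windows are printed 5′ to 3′ on the strand of the gene from 250 bases before the start, 280 bases each. They are Cxcl10 on the plus strand at chr14:15988816-15989095 with the interferon response element, a chemokine gene that rose by 8.81 ± 0.47, Ltb on the minus strand at chr20:3634025-3634304 with the NF-κB site, Nupr1 on the minus strand at chr1:190645872-190646151 with the C/EBP-ATF element, Pole2 on the minus strand at chr6:93435332-93435611 with the E2F site and Cenpw on the plus strand at chr1:29353720-29353999 with the CHR element.
Cxcl10: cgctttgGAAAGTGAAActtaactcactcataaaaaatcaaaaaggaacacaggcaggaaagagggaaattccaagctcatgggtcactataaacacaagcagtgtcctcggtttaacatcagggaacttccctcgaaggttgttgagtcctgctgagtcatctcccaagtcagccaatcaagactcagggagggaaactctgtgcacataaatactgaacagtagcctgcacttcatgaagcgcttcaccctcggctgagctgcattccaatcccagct
Ltb: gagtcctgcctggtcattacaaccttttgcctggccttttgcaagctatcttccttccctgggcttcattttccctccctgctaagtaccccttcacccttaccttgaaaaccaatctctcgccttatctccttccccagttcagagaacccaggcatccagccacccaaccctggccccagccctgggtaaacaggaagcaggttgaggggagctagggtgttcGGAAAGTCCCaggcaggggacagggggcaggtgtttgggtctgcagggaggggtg
Nupr1: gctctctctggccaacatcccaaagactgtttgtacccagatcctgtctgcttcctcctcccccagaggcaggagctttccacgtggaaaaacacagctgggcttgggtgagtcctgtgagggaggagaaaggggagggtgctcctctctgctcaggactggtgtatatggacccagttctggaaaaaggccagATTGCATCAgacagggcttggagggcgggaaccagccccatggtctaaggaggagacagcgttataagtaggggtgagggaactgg
Pole2: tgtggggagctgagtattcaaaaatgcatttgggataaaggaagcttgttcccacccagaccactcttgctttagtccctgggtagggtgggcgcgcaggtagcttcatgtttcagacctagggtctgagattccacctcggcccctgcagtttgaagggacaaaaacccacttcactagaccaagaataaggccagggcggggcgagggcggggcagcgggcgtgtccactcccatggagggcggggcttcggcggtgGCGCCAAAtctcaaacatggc
Cenpw: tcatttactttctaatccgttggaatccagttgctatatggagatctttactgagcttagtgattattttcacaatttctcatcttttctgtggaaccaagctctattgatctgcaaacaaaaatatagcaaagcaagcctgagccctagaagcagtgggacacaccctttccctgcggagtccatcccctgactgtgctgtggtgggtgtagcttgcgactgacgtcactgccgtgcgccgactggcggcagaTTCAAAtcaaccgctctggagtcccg

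The match in Cxcl10 began 243 bases before the start and that in Ltb 25 bases before it. Nupr1, a stress-induced chromatin protein gene that rose by 1.51 ± 0.06, carried its match from 56 bases before the start. The matches in Pole2 and Cenpw lay after the start, beginning 9 and 4 bases beyond it. Genes with and without the letters both changed: among interferon genes with a promoter the median change was 3.87 for the 39 with a match and 2.98 for the others, and among mitosis genes −1.11 for the 37 with a CHR match and −0.75 for the others. Among replication genes the 16 with an E2F match had a median of −0.15 and the others of −0.34. In the integrated stress list the 2 with a C/EBP-ATF match had a median of 0.71 and the others of 0.72. A match is a description of the letters and no measurement of binding.

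**Figure D4:**
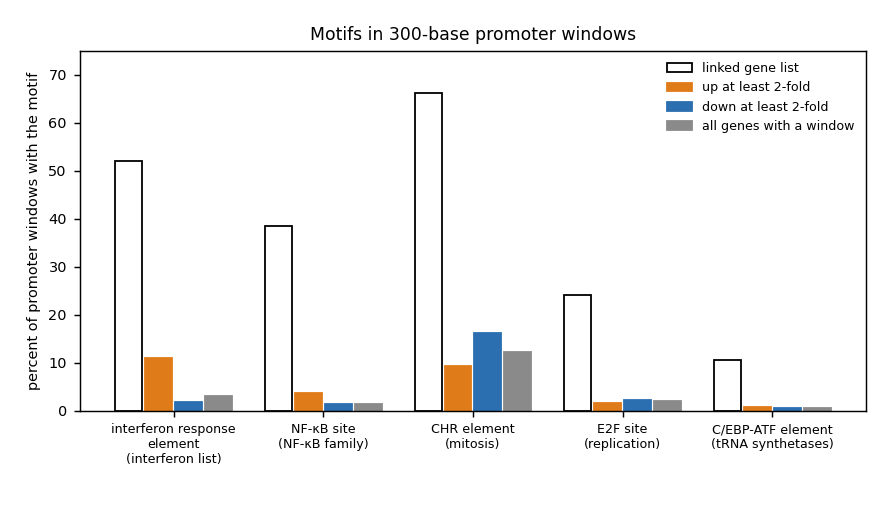
Percent of promoter windows that hold each of 5 motifs (y axis), for genes up at least 2-fold (orange), genes down at least 2-fold (blue), all genes with a window (grey) and the gene list linked with that motif (black outline). The linked list lies above the share of all genes for each of the 5 motifs drawn. The sterol element, found in none of the 30 promoters of the sterol list and 1.11% of all, is not drawn. For the C/EBP-ATF element the tRNA synthetase list is shown (10.5%, 2 of 19 promoters), and the stress list held it in 6.67% (2 of 30).

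How far the 6 h response differed from that at 12 h was tested directly, as the cytokine effect at 6 h minus the effect at 12 h, from 4 groups that share no array. By this test 28.8% of genes differed, 16.9% being higher and 11.8% lower at 6 h. Clock genes were among the largest differences. The effect on Nr1d1 was 4.09 ± 0.25 at 6 h and 0.31 ± 0.25 at 12 h, a difference of 3.78 ± 0.35 (limma adjusted p = 7.61e-08). At 12 h its arrays read 5.79, 5.64 and 4.87 with cytokines, against 5.17, 5.11 and 5.09 without, so the groups overlapped. Dbp rose at 6 h and was lower at 12 h (−0.90 ± 0.10, difference 2.73 ± 0.14), and so were Bhlhe41 (−0.64 ± 0.08, difference 2.57 ± 0.11) and Nfil3 (−0.72 ± 0.09, difference 2.48 ± 0.13). In the clock list 14 of 21 members were higher at 6 h by the test of the difference and 1 lower, with list medians of 0.48 at 6 h and −0.23 at 12 h.

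Other effects were also larger at 6 h. Adm, the gene of the vasodilator adrenomedullin, rose by 3.70 ± 0.18 at 6 h and 0.96 ± 0.18 at 12 h (difference 2.74 ± 0.25). Cox6a2, the muscle form of a cytochrome oxidase subunit, read 6.56, 7.21 and 7.18 with cytokines, against 3.89, 3.66 and 4.45 without at 6 h, and its effect at 12 h was 0.03 ± 0.16 (difference 2.96 ± 0.23). The homeobox gene Barhl1 rose by 2.60 ± 0.32 at 6 h and changed by −0.86 ± 0.32 at 12 h (difference 3.45 ± 0.46), with the third cytokine array the lowest at both times. Without the third 6 h cytokine array these differences were 3.9 for Barhl1 and 4.15 for Nr1d1. Uap1l1 (difference 2.92 ± 0.16), Ddit3 (2.70 ± 0.15) and Plvap (2.69 ± 0.29) completed the 8 largest outside the interferon list and placeholder symbols. Among genes of the integrated stress list, 19 of 34 were higher at 6 h and 1 lower, with Gdf15 higher by 2.16 ± 0.29. Of the 31 metal genes 4 were higher at 6 h and 5 lower, and Mt2A, a metallothionein, was higher by 2.33 ± 0.19.

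Smaller rises and deeper falls at 6 h formed the other side. Ccl2, the monocyte attractant, was lower at 6 h than at 12 h, reading 5.50, 5.06 and 5.43 with cytokines, against 3.29, 3.44 and 3.37 without, a rise of 1.97 ± 0.13 against 5.0 ± 0.13 at 12 h (difference −3.03 ± 0.18). Egr1, an immediate early factor, was lower by 0.82 ± 0.11 at 6 h and higher by 1.82 ± 0.11 at 12 h (difference −2.64 ± 0.16). The death ligand Tnfsf10 had a difference of −2.05 ± 0.25, Apol9a of −2.12 ± 0.24, the phosphatase regulator Ppp1r10 of −2.24 ± 0.14, and the glycosyltransferase genes B4galt5 and A3galt2 of −2.24 ± 0.11 and −2.22 ± 0.11. Dido1 had a difference of −2.21 ± 0.20. The mitotic fall was deeper at 6 h: 49 of 65 members were lower at 6 h than at 12 h by this test, with list medians of −0.91 and −0.37. Cenpw was back near the untreated level at 12 h (−0.18 ± 0.09, difference −1.93 ± 0.12). By contrast Areg (5.22 ± 0.18 at 12 h, difference −0.02 ± 0.25, adjusted p = 0.968) and Calcb (5.68 ± 0.15, difference 0.25 ± 0.21, adjusted p = 0.449) showed no detectable difference between the times.

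**Figure D5:**
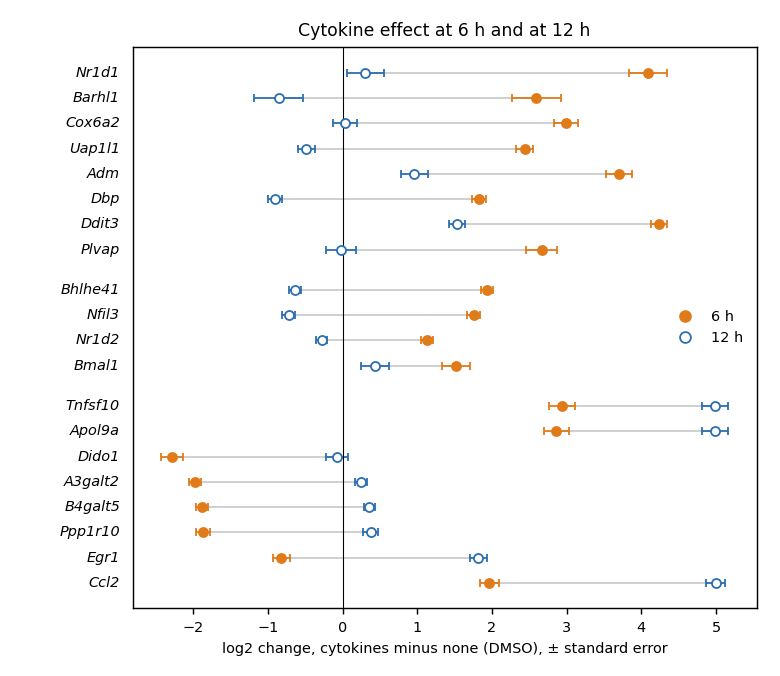
Log2 change with cytokines (x axis, ± standard error) at 6 h (filled) and 12 h (open), n = 3 arrays per group. Shown are the 16 genes with the largest tested differences outside the interferon list and placeholder symbols, and 4 clock genes. The 8 upper genes and the clock genes lie further right at 6 h, and the 8 lower genes further left.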

How the data were processed

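Rat INS-1E cells were profiled on 24 one-colour Affymetrix arrays, 3 for each of 8 groups of cytokines, compound and time. The deposited table of the authors holds linear probe-set intensity values made with robust multi-array averaging (RMA), per the submitters' processing notes, which give no version. RMA subtracts background and equalises the arrays, so large global shifts are hidden and changes of dim probe sets are compressed. The number of arrays limits the precision.

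The log2 of each intensity was taken without further scaling. Of the probe sets listed with 1 symbol, the brightest on average over the arrays stood for its gene, giving 14217 genes, and 436 probe sets with several symbols were left out. limma 3.58.1 in R 4.3.3 fitted 1 mean per group over all 24 arrays, with empirical Bayes moderation (16 residual degrees of freedom), and p-values were adjusted by Benjamini-Hochberg over all genes, called under 0.05. The script was tested on simulated data. Replicate numbers did not pair cytokine with untreated arrays at 6 h: the deviations of same-numbered arrays correlated at 0.032, 0.116 and 0.134.

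Genes named were the 15 largest called rises and falls with groups that did not overlap, outside the interferon list and without placeholder symbols. Per list, up to 8 called members in each direction and up to 4 others were named, with those that complete a complex. The 8 highest and 8 lowest differences between times, part of a fixed panel and the genes of the printed promoters were also named. Other members of the panel are not named here. The genes named for differences between times also left out the interferon list and placeholder symbols. Promoters are RefSeq windows on GRCr8. The gene lists, the rule and the comparison itself were chosen with earlier results of these data known. Cenpw and its CHR element were added to the printed promoters after its values were seen. Alternatives left out each array in turn, changed the normalization, the choice of probe set, the prior, the arrays in the fit and the offset, or added a replicate block.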

Additional observations from a re-analysis of the deposited data

Results flagged for a closer look

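The cytokine effect at 6 h minus the effect at 12 h passed the limma test (adjusted p under 0.05) for 4089 genes. The values that follow are these differences on the log2 scale, and the ranks leave out the interferon list and placeholder symbols. The 8 highest were Nr1d1 at 3.78, Barhl1 at 3.45, Cox6a2 at 2.96, Uap1l1 at 2.92, Adm at 2.74, Dbp at 2.73, Ddit3 at 2.70 and Plvap at 2.69. The 8 lowest were Ccl2 at −3.03, Egr1 at −2.64, Ppp1r10 at −2.24, B4galt5 at −2.24, A3galt2 at −2.22, Dido1 at −2.21, Apol9a at −2.12 and Tnfsf10 at −2.05. Other genes described above with such a difference were Bhlhe41 at 2.57, Nfil3 at 2.48, Mt2A at 2.33, Gdf15 at 2.16 and Cenpw at −1.93. For Nr1d1 and Barhl1 the third cytokine array was the lowest of its group at both times, and its part in the differences is given above by the values without the 6 h array.

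Probe sets to which the annotation gives no gene symbol entered no gene comparison. Of 9780 such probe sets 3047 were called at 6 h (limma adjusted p under 0.05, 31.2%), with 228 rising and 528 falling at least 2-fold. The largest change among them upwards was 7.79 and downwards −4.05.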

How the results depend on the processing

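Counts of called genes kept within 1.5 times of their reported values under all alternatives run, for both directions at 6 h and for the difference between times. With the 6 arrays alone in the fit 2880 genes rose and 3346 fell, and with every probe set as a test of its own 4675 and 5165. Replicate numbers did not pair the cytokine and untreated arrays at 6 h, whereas same-numbered cytokine arrays deviated together across times, with correlations of 0.367, 0.311 and 0.641. First and second cytokine arrays also correlated across times (0.239 and 0.218), while the third arrays stood apart from both. With a replicate block 3429 genes rose and 3879 fell at 6 h, and 2369 were higher and 1639 lower in the difference between times. The block changed the call of 0 of the 345 named genes by limma. Of the named genes, Kcnj11 turned to 0.02 and Cry2 lost its call when probe sets were averaged, and averaging moved 42 of them by over 1.5 times, as it did the differences between times of B4galt5, to −1.18, and Dido1, to −0.83. Averaging gave a call to Foxm1 at −0.50, Mcl1 at 0.21 and Ptprc at 0.21, and 6 named genes gained a call under some alternative, Hspa1a, Tnfrsf1a and C1qc being the others. An offset of 16 before log2 moved 13. With the 6 arrays alone 4 lost their call, Cry2, Hsp90b1, Kcnj11 and Rpl4. The cause of these shifts was not tested. Without detection calls, changes of dim genes are lower bounds. Motif counts over every transcript start instead of the first moved 4 counts, none of which is printed above.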
